A study of Mus musculus with 4 samples.

Results

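The genes of NF-kB, a transcription factor of inflammation and cell survival, were described across 4 RNA-seq libraries of primary mouse astrocytes. The members were chosen by name as the 5 subunit genes Nfkb1, Nfkb2, Rela, Relb and Rel, and the 5 inhibitor genes Nfkbia, Nfkbib, Nfkbie, Nfkbiz and Tnfaip3. All 10 of 10 were found among the 25393 genes listed in the deposited table. All 10 also had a mean of at least 1 normalized count, the minimum for testing, and the lowest number of reads for a member in any library was 45 (Rel). The question behind the comparison was how loss of Tet1, an enzyme that oxidises methylated cytosine in DNA, alters mRNA in astrocytes. The first group held 2 libraries labelled wild type (WT), and the second held 2 libraries labelled tet1-/- (KO), from mice described as constitutive knockouts. In both groups the mice were untreated C57BL/6 pups at postnatal day 1, and the cells came from cortex and hippocampus of 2 mice per isolation. They were grown for about 7 days, shaken at 260 rpm and collected 24 h later for total RNA. The paper speaks of biological repeats, more per genotype than the libraries analysed here. The labels do not say whether these 2 libraries came from separate cultures, so p-values measure only the spread between them, which may be technical.

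NF-kB proteins act as dimers. In resting cells the classical inhibitors IkB alpha, beta and epsilon (Nfkbia, Nfkbib, Nfkbie) hold the dimers in the cytoplasm, and signals from tumour necrosis factor, interleukin and Toll-like receptors reach the IkB kinase complex, which marks the inhibitors for degradation. Freed dimers enter the nucleus and bind short GC-rich kappa-B sites. Among their targets are Nfkbia, Nfkbie and Tnfaip3 themselves, so the pathway carries its own negative feedback. In astrocytes, NF-kB is known for driving chemokine, complement and adhesion genes during inflammation.

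Promoter sequences are shown because several of these inhibitors are known targets of the factor that they restrain. The RefSeq promoter table (GRCm38.p6) held 7 of the 10 members in 10 windows, and Nfkb1, Relb and Nfkbiz had no entry. In each window the 250 bases before the transcription start were searched on both strands for a loose kappa-B pattern, GGGNNNNNCC, and for the NF-kB consensus, which is a stricter form of that pattern and so overlaps it. The loose pattern was found in 6 members, against 48.7% of the 27025 genes in the table, and the consensus in 5 members (Nfkb2, Rel, Nfkbia, Nfkbie and Tnfaip3), against 8.23%. By window, the shares over all 32851 windows were 45.8% for the loose pattern and 7.25% for the consensus. A match describes letters only and does not show that a factor binds there. The windows of Nfkbia and Nfkbie, the classical inhibitors with the widest differences in mRNA, are printed whole, and the first 192 bases of the Rela window are given as a contrast without a consensus match. Each sequence reads 5′ to 3′ on the strand of its gene, and capitals mark consensus matches.
Nfkbia promoter, chr12:55492648-55492897, minus strand: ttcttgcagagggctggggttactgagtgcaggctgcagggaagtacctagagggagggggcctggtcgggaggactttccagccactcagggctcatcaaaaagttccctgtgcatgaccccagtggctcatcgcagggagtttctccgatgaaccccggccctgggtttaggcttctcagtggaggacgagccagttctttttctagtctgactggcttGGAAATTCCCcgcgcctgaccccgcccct
Nfkbie promoter, chr17:45555450-45555699, plus strand: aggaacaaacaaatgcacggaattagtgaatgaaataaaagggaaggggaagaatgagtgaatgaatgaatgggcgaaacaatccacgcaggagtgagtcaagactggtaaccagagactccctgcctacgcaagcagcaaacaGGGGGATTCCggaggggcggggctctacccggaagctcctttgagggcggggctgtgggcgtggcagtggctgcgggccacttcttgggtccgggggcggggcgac
Rela promoter, chr19:5637291-5637482, plus strand: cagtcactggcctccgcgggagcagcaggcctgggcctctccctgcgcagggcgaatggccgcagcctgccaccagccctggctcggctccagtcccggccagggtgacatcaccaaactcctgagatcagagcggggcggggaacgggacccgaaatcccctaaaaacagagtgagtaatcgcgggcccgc

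The match in Nfkbia began 29 bases before the start, and that in Nfkbie 106 bases before it. For the other 3 members only the site and its flanks are shown, to let the cores be compared. Nfkb2 and Tnfaip3 each had 2 separate sites in the window at their outermost RefSeq start, and Rel had 1. By the deposited coordinates, Tnfaip3 spans 19000910 to 19015657, so its window (19015411 to 19015660) falls almost wholly within the gene. Annotated exons (GENCODE, either strand) covered 110 of the 250 bases of this Tnfaip3 window and all 250 of the Nfkb2 window.
Nfkb2 site 39 bases before the start, chr19:46304688-46304717, plus strand: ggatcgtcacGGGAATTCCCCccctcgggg
Rel site 92 bases before the start, chr11:23771042-23771071, minus strand: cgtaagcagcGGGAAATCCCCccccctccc
Tnfaip3 site 125 bases before the start, chr10:19015516-19015545, minus strand: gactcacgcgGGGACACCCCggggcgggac
Tnfaip3 site 12 bases before the start, chr10:19015411-19015440, minus strand: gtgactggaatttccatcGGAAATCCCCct

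The libraries held 18749610 to 22673555 reads on genes, and the deposited values, called normalized counts here, are reads divided by 1 size factor per library, so that 1 read was worth 0.901 to 1.07. Tet1, the targeted gene, had 266 and 121 normalized counts in WT, against 173 and 463 in the KO-labelled libraries. The total over a gene cannot show which exons its transcripts kept. As Tet1 was not lower in the KO-labelled libraries, each direction below depends on the labels alone. Among 12868 genes with a mean of at least 50, the 2 KO-labelled libraries differed by over 2-fold in 28.6%, against 10.7% for the WT libraries. The astrocyte markers were present in all 4 libraries, with a summed level over 9 genes of 156100 and 155200 normalized counts in WT, 256700 in KO replicate 1 and 45880 in KO replicate 2. Gfap, the most abundant of them, had 58000 and 67300 in WT, 174900 in KO replicate 1 and 9945 in KO replicate 2, and so carried much of the sum. Of the 9 markers 7 had a log2 difference below 0, against 53.7% of all genes. For 5 (Slc1a3, Slc1a2, Sox9, Aqp4 and Aldh1l1) both KO-labelled libraries were below both of WT, against 25.4% of all genes. For 1, Gja1, both were above (3557 and 5231 in WT against 7361 and 6344), as in 22.5% of all genes. Aldoc and S100b, like Gfap, were highest in KO replicate 1 and lowest in KO replicate 2. The summed level of 16 microglia and macrophage markers ranged from 2821 to 5106 in WT and from 675 to 1107 in the KO-labelled libraries, with 16 of 16 lower, a median log2 difference of -3.25, and P2ry12 at 0 in KO replicate 1. In bulk RNA, fewer cells of a type and less RNA per cell cannot be told apart. The part of these markers in the members' differences was not tested. KO replicate 1, which held the lower values for 9 of the 10 members, had more of the microglia sum (1107) than KO replicate 2 (675).

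Levels of different genes were compared per length, as FPKM (reads per gene, scaled to the gene's length and to the library's reads on genes) computed from the recovered reads. In WT, Nfkbia stood first at 141 FPKM, above 98.3% of all listed genes by its mean over the 4 libraries. Rela followed at 35.3 FPKM, and both were set apart from their neighbours by more than the spread of the WT libraries. Nfkb2, Nfkbiz and Nfkbie came next at 19.4, 19.1 and 17.0 FPKM, an order within the spread between libraries. Nfkbib and Relb, at 13.4 and 12.8 FPKM, could not be ranked against each other either. Below them lay Nfkb1 at 9.20, Tnfaip3 at 4.501 and Rel at 0.504 FPKM, each apart from the one above it. The mRNA of the c-Rel subunit, best known from lymphocytes, was thus the scarcest of the 10 in these cultures. In the KO-labelled libraries, Nfkbia still had the highest mean (55.4 FPKM) and Rel the lowest (0.567 FPKM). All neighbours in that order overlapped, except Rela (33.5 FPKM) and Nfkb2 (19.7 FPKM). By their means, Nfkbiz (7.51 FPKM) and Nfkbie (3.58 FPKM) stood below Nfkbib and Relb there, where in WT they had stood above them. For Nfkbiz this came from KO replicate 1 alone, as in KO replicate 2 it had 13.75 FPKM, against 13.66 for Nfkbib and 12.25 for Relb. The change of order was not tested.

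**Figure D1:**
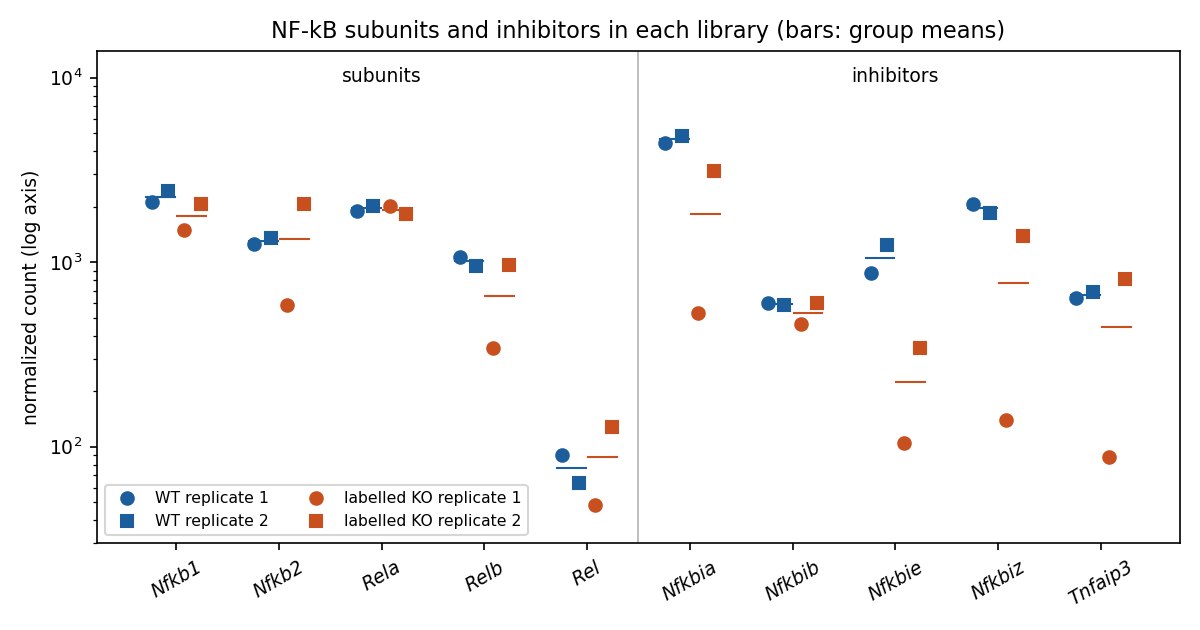
Normalized counts (log axis) of the 5 subunit genes and the 5 inhibitor genes in each library, WT in blue and labelled KO in orange, circles for replicate 1 and squares for replicate 2, with bars at the group means. The WT libraries lie within 1.42-fold of each other for all 10 genes, while the KO-labelled libraries are up to 9.94-fold apart, with replicate 1 the lower one for all but Rela.

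Among the subunits, none of the 5 passed the limma test, and Rela varied least. Rela (ENSMUSG00000024927, chromosome 19, 5637483 to 5648130, plus strand) encodes RelA, the main transactivating partner of the classical dimer. It had 1899 and 2016 normalized counts in WT, against 2023 and 1826 in the KO-labelled libraries. The groups overlapped, with WT at a mean of 1957 ± 82.4 (SD, n = 2) and the other group at 1925 ± 139 (SD, n = 2). The log2 difference was -0.03 with a 95% interval of -0.71 to 0.66 (limma, adjusted p = 0.979 with Benjamini-Hochberg adjustment over 22094 genes). Nfkb1 (ENSMUSG00000028163, chromosome 3, 135584655 to 135691547, minus strand) encodes the precursor of the DNA-binding partner of RelA. It had 2114 and 2425 normalized counts in WT, against 1493 and 2055 in the KO-labelled libraries. Both KO libraries lay below both WT libraries, though replicate 2 by a small margin. The log2 difference was -0.37, with a standard error of 0.31 and an interval of -1.14 to 0.40 (limma, adjusted p = 0.628).

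The alternative branch answers signals such as lymphotoxin and CD40 ligand, and its subunit genes Nfkb2 and Relb are followed here by Rel. Relb differed mainly in 1 library, while the KO-labelled libraries of Nfkb2 lay on either side of WT. Nfkb2 (ENSMUSG00000025225, chromosome 19, 46304737 to 46312090, plus strand) encodes the precursor that this branch processes. It had 1256 and 1355 normalized counts in WT, 589 in KO replicate 1 and 2075 in KO replicate 2. The WT libraries thus lay between the KO-labelled libraries, which were 3.52-fold apart, and the log2 difference was -0.24 in limma (adjusted p = 0.892) and 0.03 in DESeq2 (adjusted p = 0.994). Relb (ENSMUSG00000002983, chromosome 7, 19606217 to 19629438, minus strand) encodes the partner of the processed Nfkb2 product. It had 1072 and 959 normalized counts in WT, 344 in KO replicate 1 and 961 in KO replicate 2. Replicate 1 was low and replicate 2 was level with WT, and the log2 difference was -0.82 with an interval of -2.16 to 0.52 (limma, adjusted p = 0.549). Rel (ENSMUSG00000020275, chromosome 11, 23736847 to 23770970, minus strand) had 89.6 and 63.5 normalized counts in WT, 48.2 in KO replicate 1 and 127 in KO replicate 2. Its KO-labelled libraries lay on either side of WT, at a depth of 45 to 141 reads. The log2 difference of Rel was 0.05, with an interval of -1.55 to 1.66 (limma, adjusted p = 0.982).

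Of the inhibitors, Nfkbie and Nfkbia, with the nuclear IkB protein gene Nfkbiz, had both KO-labelled libraries below both WT libraries, and Nfkbib was nearly level. Nfkbie (ENSMUSG00000023947, chromosome 17, 45555703 to 45563169, plus strand) encodes IkB epsilon, a slow and NF-kB-induced brake. It had 877 and 1241 normalized counts in WT, 105 in KO replicate 1 and 344 in KO replicate 2. It was the member for which both KO-labelled libraries lay well below WT. WT had a mean of 1059 ± 258 (SD, n = 2), and the mean of the other group, 225 ± 169 (SD, n = 2), was 4.72-fold lower. The log2 difference was -2.45, with a standard error of 0.62 and an interval of -4.01 to -0.89. limma gave an unadjusted p of 0.00934 and an adjusted p of 0.233, so the difference did not pass the threshold. The promoter of Nfkbie, printed above, holds 1 consensus match, and so does that of Nfkbia. Nfkb2, Rel and Tnfaip3, whose groups overlapped, held matches too, and a link between matches and mRNA differences was not tested.

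Nfkbia (ENSMUSG00000021025, chromosome 12, 55489410 to 55492647, minus strand) encodes IkB alpha, the rapid feedback inhibitor that returns RelA dimers to the cytoplasm. It had 4445 and 4857 normalized counts in WT, 531 in KO replicate 1 and 3119 in KO replicate 2. KO replicate 1 was 8.76-fold below the WT mean, whereas replicate 2 was at 0.671 of it. The log2 difference was -1.85, with a standard error of 0.82 and an interval of -3.92 to 0.21 (limma, adjusted p = 0.406). Nfkbiz (ENSMUSG00000035356, chromosome 16, 55811375 to 55838899, minus strand) encodes IkB zeta, a nuclear cofactor that is induced by interleukin and Toll-like receptor signals and can activate or repress NF-kB targets. Its values were 2068 and 1844 normalized counts in WT, 140 in KO replicate 1 and 1393 in KO replicate 2. With 9.94-fold between them, the KO-labelled libraries were farther apart for Nfkbiz than for any other member. The log2 difference was -2.14, with a standard error of 1.04 (limma, adjusted p = 0.440).

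Tnfaip3 (ENSMUSG00000019850, chromosome 10, 19000910 to 19015657, minus strand) encodes a ubiquitin-editing enzyme that shuts off signalling upstream of the IkB kinases. It had 642 and 687 normalized counts in WT, 87.8 in KO replicate 1 and 806 in KO replicate 2. The first library labelled KO was 7.57-fold below the WT mean and the second was above both WT libraries, so the groups overlapped. The log2 difference was -1.31, with an interval of -3.87 to 1.24 (limma, adjusted p = 0.608). Nfkbib (ENSMUSG00000030595, chromosome 7, 28758251 to 28767512, minus strand) encodes IkB beta, an inhibitor with little known feedback. It had 599 and 589 normalized counts in WT, 462 in KO replicate 1 and 598 in KO replicate 2. KO replicate 2 lay between the WT libraries, and the log2 difference was -0.17 with an interval of -0.97 to 0.62 (limma, adjusted p = 0.835). Nfkbib overlaps 2 antisense genes (Ccer2 and Sirt2), Nfkb2 overlaps 2 (Psd and a non-coding gene) and Nfkb1 overlaps 1 gene on its own strand in GENCODE, and whether reads were counted by strand was not stated, so reads of these 3 may be shared with their neighbours. The other 7 members overlap no annotated gene.

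**Figure D2:**
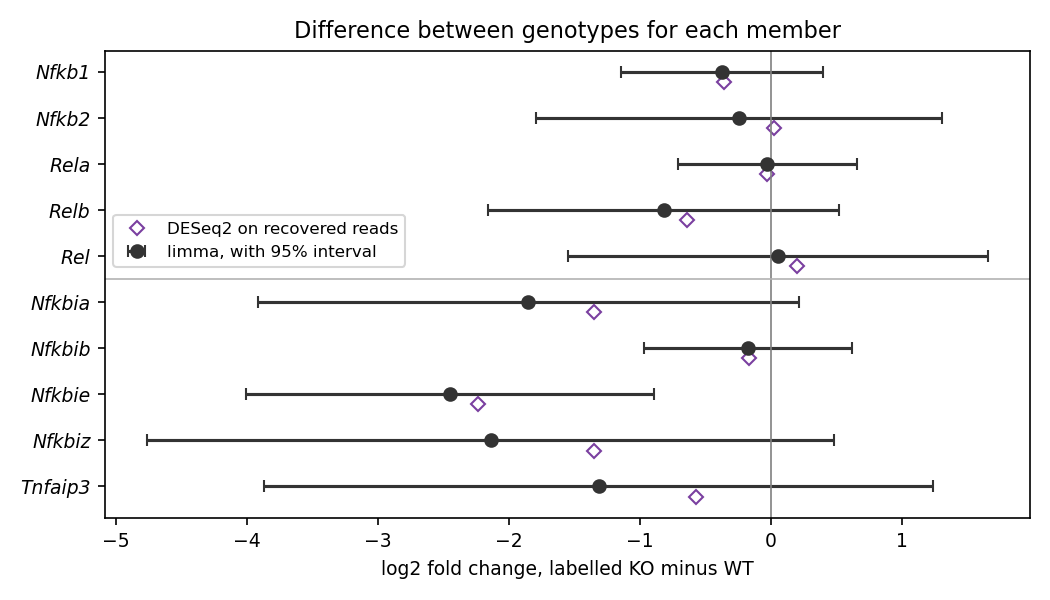
Log2 fold change (labelled KO minus WT) of each member, with limma estimates and 95% intervals in black and DESeq2 estimates on the recovered reads as open diamonds. The interval of Nfkbie, -4.01 to -0.89, is the only one of the 10 that lies wholly below 0, before any adjustment over genes.

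In limma 0 of the 10 members were called at an adjusted p under 0.05, as were 0.0% of the 22094 genes tested. At an unadjusted p under 0.05 limma gave 1 member lower (Nfkbie), against 9.18% of all genes, and 0 higher, against 4.54%. edgeR on the recovered reads also called 0 members and 0 genes, with 1 member at an unadjusted p under 0.05. DESeq2 on the same reads called 1 member lower, Nfkbie (log2 difference -2.24, adjusted p = 0.0175), where it called 4.8% of 17024 genes lower and 1.69% higher, and it called 0 members higher. This DESeq2 call was lost without WT replicate 1 (adjusted p = 0.218) and without WT replicate 2 (adjusted p = 0.504), and it was kept without KO replicate 1 (adjusted p = 0.00985) and without KO replicate 2 (adjusted p = 2.21e-09). A fit with 1 library in a group assumes that the lone library varies like the others. With a replicate block, the adjusted p of Nfkbie was 0.00211 in DESeq2 and 0.195 in limma.

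By direction, 9 of the 10 members had a log2 difference below 0, against 53.7% of all genes, and their median was -0.59 against -0.07 over all genes. Both KO-labelled libraries lay below both WT libraries for 4 members (Nfkb1, Nfkbia, Nfkbie and Nfkbiz), against 25.4% of all genes, and above them for 0 members, against 22.5%. The count of 9 rested in part on 1 library. Without KO replicate 1 it was 6 of 10, against 50.1% of all genes, as Nfkb2, Nfkbib and Tnfaip3 turned to differences of 0.67, 0.01 and 0.28 in limma. Nfkb1, Relb, Nfkbia, Nfkbie and Nfkbiz kept a negative difference in all 23 alternatives, while Nfkb2, Rela and Rel changed sign in 6 each and Nfkbib and Tnfaip3 in 3 each.

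For 9 of the 10 members the KO-labelled libraries were farther apart than the group means. Nfkbie was the exception, with 3.28-fold between those libraries and 4.72-fold between the means. The 2 WT libraries were 1.02-fold to 1.42-fold apart over the 10 members, and 0 of the 10 exceeded 2-fold. The 2 KO-labelled libraries were 1.11-fold (Rela) to 9.94-fold (Nfkbiz) apart, and 7 of the 10 exceeded 2-fold. KO replicate 1 held the lowest of the 4 values for 9 members, all but Rela. Over the whole table that library also had the most genes at 0, with 4563, against 2661 and 2843 in WT and 2597 in KO replicate 2. Its low values are thus not particular to the members. In 7 members (Nfkb2, Relb, Rel, Nfkbia, Nfkbie, Nfkbiz and Tnfaip3) KO replicate 1 was below both WT libraries and under 50% of KO replicate 2. That pattern was chosen after the values were seen, and 16.0% of all genes had it. KO replicate 2 was above both WT libraries for Nfkb2, Rel and Tnfaip3.

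On the log2 scale KO replicate 1 lay below the WT mean by values that ordered the feedback inhibitors first. The shift was -3.79 for Nfkbiz, -3.30 for Nfkbie, -3.13 for Nfkbia and -2.91 for Tnfaip3. It was -1.56 for Relb and -1.15 for Nfkb2, and between -0.64 and 0.05 for the other 4 members. In KO replicate 2 the shifts were smaller for all members but Rel and Rela, and Nfkbie alone was more than 1 unit below WT at -1.60. Nfkbia was at -0.58 and Nfkbiz at -0.49 in that library, while Rel was at 0.75, Nfkb2 at 0.67 and Tnfaip3 at 0.28. Without KO replicate 2, DESeq2 called 5 members lower (Relb, Nfkbia, Nfkbie, Nfkbiz and Tnfaip3), against 6.71% of all genes it tested, and edgeR called 4 of these, all but Relb, against 2.11%. Without KO replicate 1, both tools called 1 member lower, Nfkbie (adjusted p = 0.0377 in edgeR), where DESeq2 called 11.8% of genes lower and edgeR 6.64%.

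**Figure D3:**
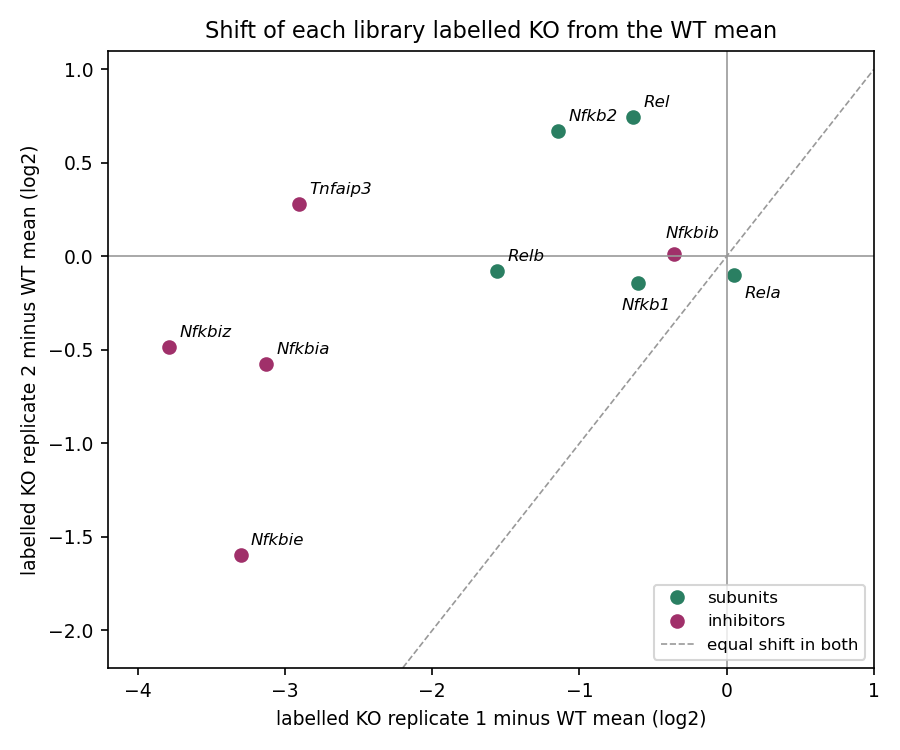
Shift of each member from the WT mean (log2) in KO replicate 1 (x axis) against KO replicate 2 (y axis), subunits in green and inhibitors in purple, with a dashed line where both shifts would be equal. All members but Rela lie above the dashed line, since replicate 1 was the lower library, and Nfkbie is lowest on the y axis at -1.60.

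Ratios within a library do not depend on its scaling, so 8 ratios of FPKM were compared between groups with two-sided exact permutation tests, whose smallest p with 2 libraries a group is 0.333 (adjusted over the 8 ratios, 0.533). Nfkbia stood to Rela at 3.95 and 4.07 in WT, 0.443 in KO replicate 1 and 2.88 in KO replicate 2. Nfkbie stood to Nfkbib at 1.04 and 1.503 in WT, 0.162 in KO replicate 1 and 0.410 in KO replicate 2. The groups did not overlap for these ratios or for those of Nfkbia and Nfkbiz to Nfkbib, so each reached that smallest p. The ratio of Nfkb2 to Relb, the partners of the alternative branch, was also apart, at 1.38 and 1.67 in WT, against 2.02 and 2.55 in the KO-labelled libraries. It was the 1 ratio with a group gap in which the KO-labelled libraries were higher. Nfkb1 to Rela was 0.251 and 0.271 in WT against 0.166 and 0.253 (exact permutation p = 0.667). Rel to Rela and Tnfaip3 to Nfkbib overlapped fully (exact permutation p of 1 for each).

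The balance between inhibitors and subunits was summed on the same FPKM scale. The 3 classical inhibitors together had 166 and 177 FPKM in WT, 26.1 in KO replicate 1 and 115 in KO replicate 2. The 5 subunits together had 77.2 and 77.3 FPKM in WT, 51.6 in KO replicate 1 and 86.1 in KO replicate 2. The mRNA of classical inhibitors thus exceeded that of the subunits by 2.15 and 2.30 times in WT and 1.34 times in KO replicate 2, and it was 0.505 of it in KO replicate 1. Nfkbia made up 83.0% and 81.6% of the inhibitor sum in WT and 83.3% in KO replicate 2, but 57.1% in KO replicate 1. The share of Nfkbib there was 36.9%, against 8.30% and 7.34% in WT. Rela made up 45.3% and 46.1% of the subunit sum in WT, 65.2% in KO replicate 1 and 38.7% in KO replicate 2, while the share of Nfkb2 was 24.7%, 25.6%, 15.7% and 36.3%. These shares were not tested.

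The rest of the pathway was described through 5 lists, which were chosen with earlier results of these data known. None of the lists had a gene called by limma or edgeR. Their counts read against the shares over all genes, which were 53.7% with a log2 difference below 0, 9.18% lower and 4.54% higher at an unadjusted p under 0.05 in limma, and 4.8% lower and 1.69% higher by DESeq2. Of 7 measured ligands, 6 were lower, 2 of them at an unadjusted p under 0.05 and 0 called by DESeq2, with a median log2 difference of -1.67. Tnf, the classical activator, had 30.9 and 127 normalized counts in WT, 2.14 in KO replicate 1 and 16.2 in KO replicate 2 (limma, adjusted p = 0.345). It is itself an NF-kB target, and in KO replicate 1 it was under the floor of 3 reads (2.70 to 3.21 normalized counts). Tnfsf12, the TWEAK ligand, had 197 and 175 against 99.6 and 33.4. Il1a had 8.54 and 12.9 against 1.07 and 3.61, and Lta had 3.20 and 9.20 against 0 and 2.70, levels too low to read a direction from. A further gene of the list, Cd40lg, was not in the table.

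Of 14 tested receptors, 11 were lower and 3 higher, with a median of -0.50, and DESeq2 called 3 lower and 2 higher (4.8% and 1.69% over all genes). Tnfrsf1a, the main tumour necrosis factor receptor, had 4035 and 4744 normalized counts in WT, against 3339 and 3543 in the KO-labelled libraries (log2 difference -0.35, adjusted p = 0.621 in limma). The inducible receptor Tnfrsf1b had 909 and 646 against 28.9 and 124. Both of its KO-labelled libraries were far below WT (log2 difference -3.65, adjusted p = 0.179 in limma and 0.000286 in DESeq2). Cd14, the lipopolysaccharide co-receptor of myeloid cells and reactive glia, had 607 and 923 against 70.7 and 206, and Tlr2 was also called lower by DESeq2 (adjusted p = 0.0318). Tnfrsf12a, the TWEAK receptor, went the other way, with 495 and 718 in WT against 3099 and 7339 (adjusted p = 0.147 in limma and 1.11e-05 in DESeq2). Tlr6 had 23.5 and 39.5 against 370 and 150.

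Of 25 upstream kinases and adaptors, 19 were lower, 7 of them at an unadjusted p under 0.05 (9.18% over all genes) and 0 higher at that p, but the median of -0.19 was near that of all genes. DESeq2 called 2 of the 25 lower, Ikbke and Birc3, a share not far from the 4.8% of all genes. Ikbke, an inducible IkB-kinase-related kinase, had 773 and 588 normalized counts in WT, against 185 and 83.8 in the KO-labelled libraries (adjusted p = 0.182 in limma and 0.00221 in DESeq2). Birc3, a ubiquitin ligase of the receptor complex and an NF-kB target, had 514 and 598 against 29.97 and 163. Its relative Birc2 had 1366 and 1165 against 557 and 609, and the Toll-like receptor kinase Irak4 had 546 and 696 against 283 and 155. The abundant adaptors Traf3 and Tab2 differed by -0.03 and -0.42 on the log2 scale.

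Of 17 other regulators, 13 were lower and 4 higher, with a median of -0.30, and DESeq2 called 2 lower, Bcl3 and Irak3, against 4.8% of all genes. Bcl3, a nuclear relative of the IkB proteins, had 595 and 364 normalized counts in WT, against 6.42 and 30.6 in the KO-labelled libraries. The difference of -4.93 was larger than that of any of the 10 members (adjusted p = 0.147 in limma and 1.39e-07 in DESeq2). Irak3, a brake on Toll-like receptor signalling, had 144 and 190 against 17.1 and 7.21. Nkiras2 had 339 and 520 against 992 and 932, and Tnip2 had 537 and 449 against 292 and 202. Rnf11 and Tax1bp1, which work with the Tnfaip3 product, overlapped between the groups.

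Of 28 NF-kB target genes, 23 were lower (53.7% over all genes) and the median was -2.26. At an unadjusted p under 0.05, 12 were lower (9.18% over all genes) and 0 higher. In 19 of the 28 both KO-labelled libraries lay below both WT libraries, against 25.4% of all genes. As this list was chosen with earlier results of these data known, its counts describe it and do not test it. DESeq2 called 7 lower, against 4.8%: Cxcl5, Icam1, Lcn2, C3, Traf1, Tnfaip2 and Mmp9. C3, the central complement component, had 484800 and 436900 normalized counts in WT, against 1783 and 4265 in the KO-labelled libraries (log2 difference -7.38, adjusted p = 0.0777 in limma). Lcn2, an iron-binding protein of reactive astrocytes, had 178300 and 162700 against 73.9 and 5663. Cxcl5 had 414 and 867 against 7.49 and 41.5, Traf1 had 2134 and 2771 against 268 and 22.5, and Irf1 had 1331 and 1354 against 520 and 609. Over the 5 lists, 28 genes were lower at an unadjusted p under 0.05. That number was 4 without WT replicate 1 and 4 without WT replicate 2, where 3.9% and 4.06% of all genes passed. It was 27 without KO replicate 1 and 35 without KO replicate 2, where 13.7% and 9.28% did. Beside these counts, the microglia and macrophage markers were lower in 16 of 16, and 12 of them had an unadjusted p under 0.05. Several list genes, such as Cd14, Tlr2 and Tnf, are also expressed by microglia, and the part of those cells was not tested.

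**Figure D4:**
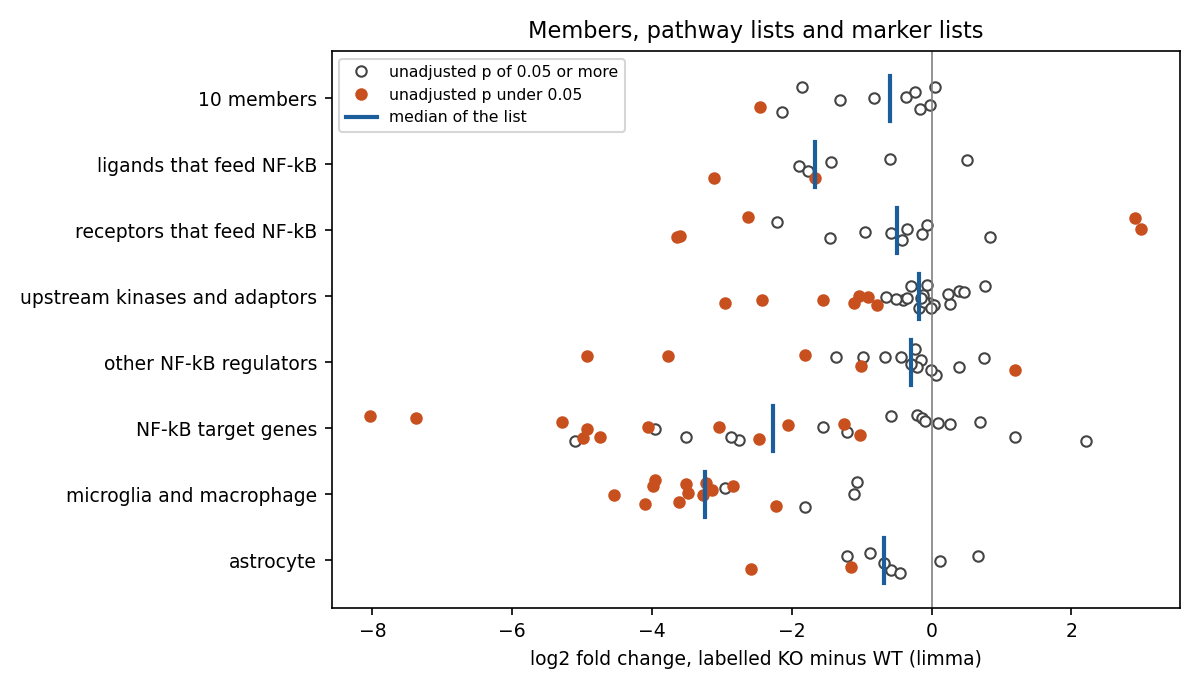
Log2 fold change (labelled KO minus WT, limma) of the 10 members, of 5 pathway lists and of 2 marker lists, 1 circle a gene, filled where the unadjusted p was under 0.05, with a blue bar at the median of each list. The median is -0.59 for the members, -2.26 for the target genes and -3.25 for the microglia and macrophage markers, against -0.07 over all genes.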

How the data were processed

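RNA-seq was measured in 4 libraries, 2 labelled WT and 2 labelled KO. Per the labels, the authors aligned to mm10, while the aligner, counter and annotation are not given in the sources used here. What the authors deposited is a signal value, the read count divided by a size factor of the library. Of these, 100% of values gave whole reads (tolerance 0.1), and those reads (18749610 to 22673555 per library) were used in edgeR and DESeq2. The authors also deposited gene lengths, used here for FPKM, and group means, fold changes and p-values, which were not used. All per-sample columns matched a sample. The design had allowed for FPKM, and its test was kept.

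The genotypes were compared with limma 3.58.1 (lmFit, eBayes with trend, two-sided) on log2(normalized count + 1), which understates changes of low genes, with p-values adjusted by Benjamini-Hochberg over the 22094 genes that reached a mean of 1. edgeR 4.0.16 (quasi-likelihood, TMM) and DESeq2 1.42.0 were alternatives, run in R 4.3.3. The other alternatives were a pseudocount of 0.1, a mean minimum of 5, no filter, 3 scalings, a replicate block and each library left out. Blocks and left-out libraries in edgeR and DESeq2 were added after seeing the data. Python 3.11.15 with pandas 2.3.3, numpy 2.4.6, scipy 1.17.1 and matplotlib 3.10.9 was used for ratios and plots. The fits were tested on data simulated with the same spread in both groups. That check does not cover the wider spread between the KO-labelled libraries. Libraries of 1 label differed beyond sampling noise (median chi-square per gene 8.04 in WT and 27.1 in KO). Floors and counts cover counting error only.

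The members and lists were chosen with earlier results of these data known. Named were all members, Tet1, and of each pathway list the 4 smallest limma p and the 2 highest means, of each marker list the 2 highest means. Other genes were named after their values were seen. The promoter table is from RefSeq (GRCm38.p6). Protein sequences were not analysed here.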

Additional observations from a re-analysis of the deposited data

How the results depend on the processing

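With a replicate block, limma gave 0 genes and 0 members called, as without it, with a difference of -2.45 for Nfkbie. The replicate numbers share no stated source, and deviations of same-numbered libraries had a correlation of -0.084 over genes, so they share only a number. limma called 0 genes with each other pseudocount, filter and scaling, while DESeq2 called 1106 genes and 1 member, or 1043 genes and 1 member with the replicate block. Fits that left out 1 library gave 0 to 2672 genes and 0 to 5 members called over limma, edgeR and DESeq2, and 4 to 39 list genes lower at an unadjusted p under 0.05. The cause was not tested, though such fits hold 3 libraries. Scalings moved the median of all genes from -0.11 (equal sums) to 0.08 (quantile) and changed no member's sign. DESeq2 turned Nfkb2 to 0.029. Leaving out 1 library gave ranges that crossed 0 for Nfkb2 (-1.17 to 0.70), Rela (-0.10 to 0.057), Rel (-0.70 to 0.76), Nfkbib (-0.39 to 0.044) and Tnfaip3 (-2.94 to 0.31), and for the log2 differences of the ratios of Rel to Rela (-0.69 to 0.85) and Tnfaip3 to Nfkbib (-2.56 to 0.27). The moderated test of limma used 5.4 degrees of freedom for each gene, part of them borrowed from the spread of other genes. With 2 libraries a group, no exact permutation test can go below 0.333.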

Other observations

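Markers of other cell types were summed as normalized counts, and in most lists 1 or 2 abundant genes carried the sum. The 8 oligodendrocyte lineage markers had 7314 and 11540 in WT, against 18310 and 10900 in the KO-labelled libraries, mostly from Olig1 (5256 and 8033 against 15320 and 7074) and Olig2 (1391 and 2290 against 2738 and 3406). Of these 8 markers 5 had a log2 difference below 0 (median -0.40), and Cspg4, a marker of their precursors, was called lower by DESeq2 (330 and 413 against 39.6 and 128, adjusted p = 0.0307). Among the 7 meningeal fibroblast and mural markers the sum was 4502 and 12700 in WT, against 26370 and 52690, mostly from Acta2, a smooth muscle actin (1980 and 8903 against 22250 and 50180). Of these 7 markers 4 were below 0 (median -0.53). At an unadjusted p under 0.05 in limma, Dcn (36.3 and 43.2 against 6.42 and 10.8) and Rgs5 (37.3 and 45.1 against 12.8 and 14.4) were lower, and Acta2 and Col1a2 were higher.

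The 6 neuron markers summed to 3510 and 1988 in WT, against 2573 and 3202, nearly all from Map2. Of the 5 tested, 4 were higher with no overlap between the groups (median 1.80), against 22.5% of all genes. DESeq2 called Tubb3 higher (52.3 and 80.9 against 170 and 307, adjusted p = 0.0421). Apart from Map2 and Tubb3, these markers had few counts in WT, and Dcx was at 0 in WT replicate 2, so their direction rests on low values. Snap25 was at 0 in both WT libraries. The 4 endothelial markers in the table had 76.8 and 168 in WT, against 262 and 67.6, chiefly Kdr, and Cldn5 was not in the table. The part of these cell types in the members' differences was not tested.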
